A study of Mus musculus with 26 samples.

Results

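The glutathione transferases described here are 10 genes of brown adipose tissue, the heat-producing fat of the mouse. They are Gstm1, Gstm2 and Gstm7 of the mu class, Gsta3 and Gsta4 of the alpha class, Gstt1 and Gstt2 of the theta class, Gstk1 of the kappa class, Gstp1 of the pi class and Gsto1 of the omega class. They were chosen by name, with earlier results of these data known, and are not the whole family. Among the members left out are Gstm4, Gstm5, Gstt3, Gstp2, Gsto2 and the zeta gene Gstz1. All 10 were among the 48432 genes of the deposited table and all 10 passed the filter on low values, which left 12702 genes tested.

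RNA sequencing covered 26 libraries of mice aged 2 months, 13 of each genotype. The controls, FF, had the genotype KLF15 flox/flox and carried no Cre. The BKO mice had the genotype Ucp1-Cre/+;K15F/F, in which Cre recombinase is driven by the promoter of Ucp1, a gene of brown adipocytes, so that deletion of Klf15 is aimed at these cells and other cells of the tissue keep the gene. Both genotypes thus carried floxed Klf15 alleles, and since the controls had no Cre, loss of Klf15 and presence of the Cre transgene cannot be told apart. Each genotype had 3 libraries from mice fed at room temperature, 3 from mice fasted there, 4 from a cold challenge and 3 from mice both cold and fasted. The labels give no length or degree of the cold or the fast. They do not say whether libraries came from separate animals, so p-values measure only the spread between these libraries.

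Glutathione transferases join the tripeptide glutathione to reactive, mostly electrophilic compounds, which makes these compounds more soluble and ready for export. In fat cells such compounds include aldehydes formed when membrane lipids are oxidised, and brown adipocytes, rich in mitochondria and in burning lipid, are a tissue in which this chemistry is studied. Many family members are known in other tissues as targets of the transcription factor Nrf2, which binds antioxidant response elements. Klf15 is a Krueppel-like transcription factor known for its part in amino acid, lipid and glucose metabolism.

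Values are FPKM, fragment numbers scaled for transcript length and for the size of the library. Because FPKM is per length, levels can be set beside each other between genes. Depth is unknown because counts were not used here. Between 11345 and 11868 genes reached 1 FPKM in each library. The brown fat genes Cidea and Cox8b stood at 1598 to 2311 and 3211 to 7466 FPKM over the 26 libraries. Ucp1 itself is listed at 0 in 8 libraries, all those of the cold challenge, and was left out as a failed estimate. The hepatocyte gene Alb stood between 0 and 0.0404 FPKM. In bulk tissue fewer cells of a type and less RNA per cell cannot be told apart. Numbers within the description labels fall into 2 ranges, 1 to 8 for 8 libraries and 15 to 32 for 18. All BKO libraries and all libraries of cold with fasting are in the upper range, whereas 2 of 3 fed, all 3 fasted and 3 of 4 cold FF libraries are in the lower one. What the numbers stand for is not given. In fasted mice the number range and the genotype cannot be told apart, and in cold with fasting both genotypes share one range. Replicate 1 of BKO fed stood apart from its group in several members and in markers of red blood cells, and replicate 3 of BKO in cold with fasting did so in the red blood cell markers. Calls on single members that rest on either are given with and without it. Correlations are given over all libraries only.

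Klf15 checked the labels. In FF mice it measured 29.8, 30.6 and 23.5 FPKM fed, 24.5, 18.8 and 29.1 FPKM fasted, 15.2, 16.9, 15.2 and 9.03 FPKM in cold and 21.7, 16.4 and 15.4 FPKM in cold with fasting. In BKO mice it measured 3.15, 3.67 and 5.13 FPKM fed, 8.92, 7.94 and 8.82 FPKM fasted, 2.12, 2.54, 2.84 and 2.18 FPKM in cold and 2.86, 3.34 and 3.82 FPKM in cold with fasting. Every BKO library lay below every FF library of all conditions, and the BKO mean was 14.3%, 35.5%, 17.2% and 18.7% of the FF mean in the 4 conditions in that order. Which exons were floxed is not given in the sources used here, and a value over the whole transcript cannot show the deleted part alone.

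Averaged over all 26 libraries, Gsto1 was the highest member at 121 FPKM ± 15.6 (SD, n = 26), followed by Gstm1 at 77.9 ± 22.3, Gsta4 at 58.6 ± 12.4, Gstp1 at 50.6 ± 6.53 and Gstk1 at 46.8 ± 12.2 FPKM. The lower members were Gstt2 at 22.2 ± 13.4, Gstm2 at 13.2 ± 3.82, Gstt1 at 10.8 ± 2.91, Gstm7 at 5.27 ± 3.92 and Gsta3 at 3.31 ± 2.22 FPKM. The order of some neighbours depended on the genotype. Gstk1 was above Gstp1 in 12 of 13 FF libraries, at 57.7 ± 4.53 against 50.1 ± 4.96 FPKM, and below it in all 13 BKO libraries, at 35.9 ± 5.57 against 51.1 ± 7.98 FPKM. Gstm7 was above Gsta3 in all 13 FF libraries, at 8.49 ± 3.00 against 2.19 ± 0.545 FPKM, and below it in 12 of 13 BKO libraries, at 2.05 ± 0.807 against 4.43 ± 2.70 FPKM. Gsto1 was above Gstm1 in 25 libraries and Gsta4 above Gstp1 in 23. Gstm2, Gstm7 and Gstk1 had ranges in the 13 FF and the 13 BKO libraries that did not overlap, whatever the condition. The share of all tested genes with such ranges is not given here, so this describes these genes alone.

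**Figure D1:**
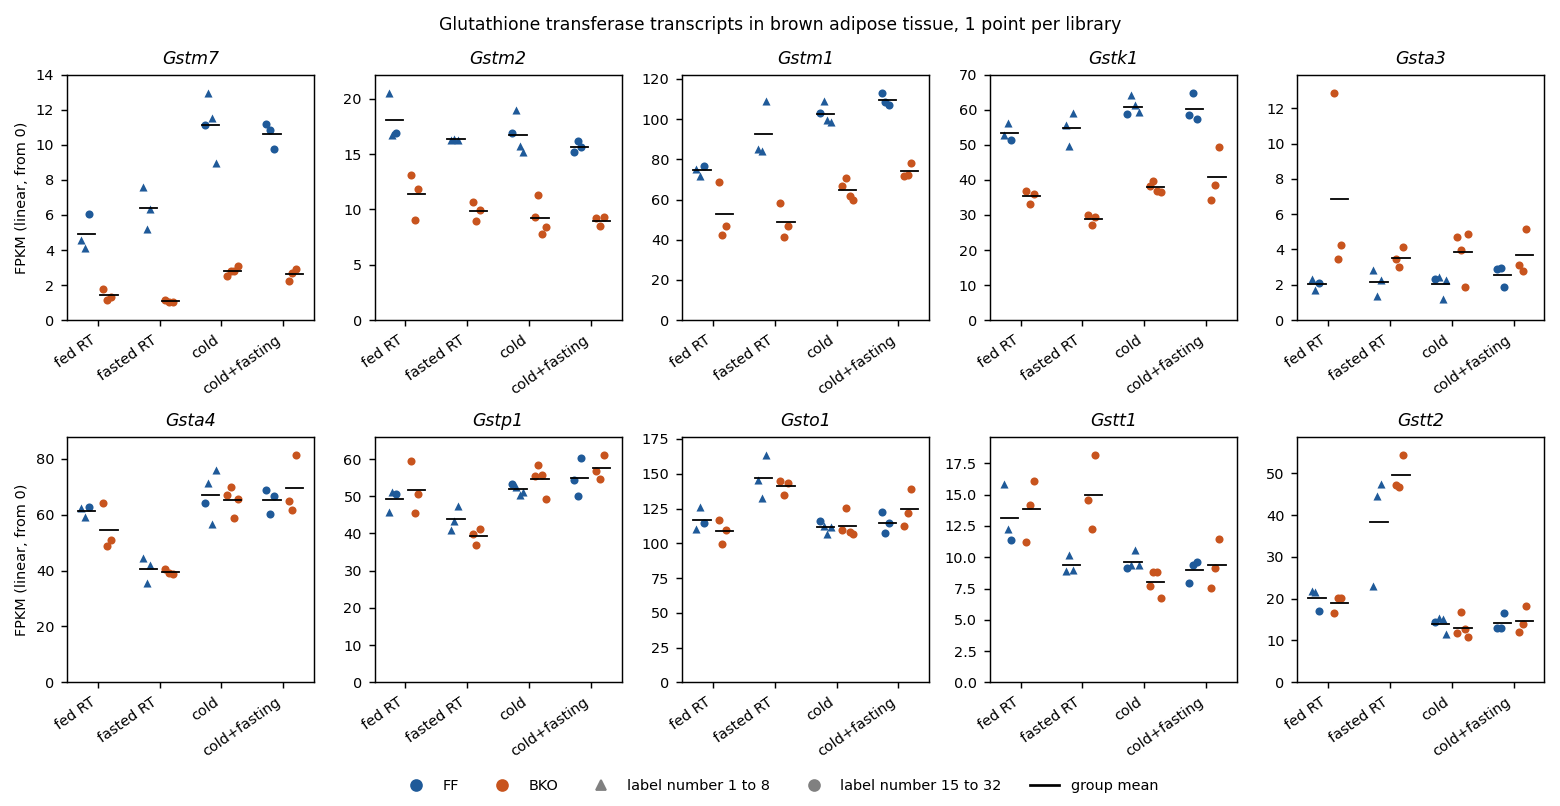
FPKM of the 10 transferases (vertical axes, linear, from 0, scaled per gene) in each library of the 4 conditions, FF in blue and BKO in orange, with the group mean as a bar; triangles are libraries with label numbers 1 to 8 and circles those with 15 to 32, and RT is room temperature. Gstm7, Gstm2 and Gstk1 in BKO lie below all FF libraries, Gstt2 is high in fasted mice of both genotypes, and 1 BKO fed library stands apart for Gsta3 at 12.9 FPKM.

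The promoters of the 4 members that were lower in BKO are shown here because these genes moved together between the genotypes. Each sequence is the 250 bases before the first listed start, from RefSeq on GRCm38.p6, read 5′ to 3′ on the gene's own strand. Capitals mark CACCC, a short motif bound by Krueppel-like factors, or its reverse complement GGGTG, and GGGCGG, the GC box bound by Sp1-type factors, or its reverse complement CCGCCC. The windows are chr3:107931818-107932067 (minus strand) for Gstm7, chr3:107986421-107986670 (minus) for Gstm2, chr3:108017974-108018223 (minus) for Gstm1 and chr6:42245685-42245934 (plus) for Gstk1.
Gstm7: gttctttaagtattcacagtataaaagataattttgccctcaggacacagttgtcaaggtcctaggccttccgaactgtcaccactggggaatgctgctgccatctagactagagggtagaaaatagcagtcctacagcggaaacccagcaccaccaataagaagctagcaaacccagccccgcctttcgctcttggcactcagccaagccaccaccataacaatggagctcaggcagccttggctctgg
Gstm2: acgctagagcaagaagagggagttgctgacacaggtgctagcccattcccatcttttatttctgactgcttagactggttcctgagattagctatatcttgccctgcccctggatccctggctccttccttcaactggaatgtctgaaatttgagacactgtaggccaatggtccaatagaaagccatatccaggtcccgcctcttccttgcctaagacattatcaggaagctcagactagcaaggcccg
Gstm1: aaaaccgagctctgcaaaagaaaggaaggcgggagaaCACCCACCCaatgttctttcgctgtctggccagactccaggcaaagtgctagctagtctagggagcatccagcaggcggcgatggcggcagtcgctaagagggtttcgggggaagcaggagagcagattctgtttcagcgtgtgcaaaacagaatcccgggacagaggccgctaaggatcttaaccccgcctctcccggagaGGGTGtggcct
Gstk1: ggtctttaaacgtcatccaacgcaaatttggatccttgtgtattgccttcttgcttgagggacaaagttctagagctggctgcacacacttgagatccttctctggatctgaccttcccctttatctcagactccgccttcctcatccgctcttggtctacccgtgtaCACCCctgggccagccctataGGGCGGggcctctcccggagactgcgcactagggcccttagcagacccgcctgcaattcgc

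The Gstm1 window held CACCC at 3 places, of which 2 overlap by 1 base, and the Gstk1 window held it at 1 place, from base -82 counted from the start. GGGCGG was found in the Gstk1 window alone of the 4, from base -61. Neither motif, nor TGACNNNGC, the core of the antioxidant response element, was present in the Gstm2 window or in that before the first Gstm7 start. A second listed start of Gstm7 lies within the first transcript, and the 250 bases before it held each of the 3 motifs at 1 place. Among 32851 RefSeq promoter windows of the same length, 52.0% held CACCC, 32.7% held GGGCGG and 10.2% held TGACNNNGC on either strand. Windows were found for 8 of the 10 members. Among members whose windows were found but are not printed, TGACNNNGC was present in that of Gsta3. The listed start of Gsta3, unlike those of the other members, was not matched to the start of a GENCODE transcript of the gene. A match of letters is a description of the window and not a binding site.

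Of the 10 members, Gstm7 had the largest log2 difference between the genotypes in each condition. This mu-class gene lies on chromosome 3 (GRCm38, chr3:107926334-107931817, minus strand). In fed mice Gstm7 measured 4.55, 4.12 and 6.07 FPKM in FF and 1.80, 1.16 and 1.35 FPKM in BKO. In fasted mice it measured 7.60, 5.23 and 6.33 FPKM in FF and 1.17, 1.06 and 1.03 FPKM in BKO. In cold it measured 11.1, 12.98, 11.5 and 8.95 FPKM in FF and 2.50, 2.80, 2.81 and 3.11 FPKM in BKO. With fasting in the cold it measured 11.2, 10.9 and 9.79 FPKM in FF and 2.24, 2.72 and 2.90 FPKM in BKO. No groups overlapped, and the highest BKO library of any condition, at 3.11 FPKM, lay below the lowest FF library, at 4.12 FPKM. The BKO mean was 29.2% of the FF mean fed, 17.02% fasted, 25.2% in cold and 24.7% in cold with fasting. On the scale of log2(FPKM + 1), the difference of group means, BKO minus FF, for Gstm7 was -1.28 in fed mice, with an SE of 0.13 and an adjusted p of 6.8e-06 from limma with Benjamini-Hochberg adjustment. It was -1.81 in fasted mice (SE 0.13), with an adjusted p of 8.9e-09. In cold it was -1.67 (SE 0.12), with an adjusted p of 5.3e-09, and with fasting in the cold -1.68 (SE 0.13), with an adjusted p of 7.4e-08. Adding 1 understates the change of a gene this low: with a pseudocount of 0.1 the differences of Gstm7 were -1.71, -2.44, -1.94 and -1.98. The call in fed mice ended when only the 6 fed libraries were fitted (adjusted p = 0.15), with the same difference of Gstm7.

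Gstm2, a mu-class gene about 55.4 kb away (chr3:107981702-107986453, minus strand), was lower in BKO in every condition. It measured 20.5, 16.8 and 16.9 FPKM in FF and 13.1, 9.06 and 11.9 FPKM in BKO when fed. Fasted mice had 16.3, 16.4 and 16.3 FPKM in FF and 10.7, 8.97 and 9.94 FPKM in BKO. In cold the values were 16.9, 18.9, 15.7 and 15.2 FPKM in FF and 9.27, 11.3, 7.74 and 8.44 FPKM in BKO. With fasting in the cold they were 15.2, 16.2 and 15.6 FPKM in FF and 9.20, 8.52 and 9.28 FPKM in BKO. The groups did not overlap, and the BKO mean lay between 55.0% and 62.8% of the FF mean. The log2 difference was -0.64 in fed mice (SE 0.12), with a limma adjusted p of 0.021, and -0.68 in fasted mice (SE 0.12), with 0.0011. In cold it was -0.80 (SE 0.10), with an adjusted p of 0.0001, and with fasting in the cold -0.74 (SE 0.12), with 0.003. In fed mice the call on Gstm2 ended without FF replicate 1 (log2 difference -0.55, limma adjusted p = 0.187), without BKO replicate 2 (-0.49, adjusted p = 0.18) and without BKO replicate 3 (-0.67, adjusted p = 0.0518). With the label-number range as a covariate the adjusted p from limma was 0.337 fed and 0.0824 fasted. Only the fed and the cold FF groups hold both ranges, each with 1 library in the upper one. The effect of the range was therefore estimated from these groups alone, also for fasted mice, where range and genotype coincide. The fed call on Gstm2 also ended when only the fed libraries were fitted (adjusted p = 0.804), and that of cold with fasting when only its libraries were (adjusted p = 0.0501). Among libraries numbered 15 to 32 alone, Gstm2 was -0.55 in fed mice and -0.83 in cold, neither of them called (adjusted p = 1 and 0.256).

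Gstm1 was the most abundant mu-class member (chr3:108012255-108017973, minus strand). In fed mice it measured 75.1, 71.7 and 76.5 FPKM in FF and 68.6, 42.3 and 46.9 FPKM in BKO. Fasted mice had 85.1, 83.9 and 109 FPKM in FF and 58.2, 41.4 and 46.9 FPKM in BKO. In cold it measured 103, 109, 99.4 and 98.6 FPKM in FF and 66.8, 70.9, 61.8 and 60.0 FPKM in BKO, and with fasting in the cold 113, 108 and 107 FPKM in FF and 71.7, 72.4 and 78.1 FPKM in BKO. Within each condition the genotypes did not overlap, with BKO means at 70.6%, 52.7%, 63.2% and 67.6% of FF. The log2 difference passed the test fasted (-0.91, SE 0.13, limma adjusted p = 0.00015) and in cold (-0.66, SE 0.12, adjusted p = 0.005). It did not pass fed (-0.52, SE 0.13, adjusted p = 0.186) or in cold with fasting (-0.56, SE 0.13, adjusted p = 0.124). Without BKO fed replicate 1, the library at 68.6 FPKM, the fed difference of Gstm1 was -0.73 (limma adjusted p = 0.0034). With the label-number range as a covariate the call in cold ended (adjusted p = 0.158), and so it did among libraries numbered 15 to 32 alone (-0.67, adjusted p = 1). With only the fasted libraries fitted, the fasted call on Gstm1 ended (adjusted p = 0.0683).

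Reads of Gstm1 may be shared with copies. Of the 1520 distinct 50-base words of its transcripts, 18.9% also occur in other genes, 14.1% in the processed pseudogene Gstm2-ps1 on chromosome 5. Gstm2-ps1 had a mean of 20.1 FPKM over all libraries, and its log2 difference was -0.48 fed (not called), -0.90 fasted (called), -0.52 in cold (not called) and -0.63 in cold with fasting (not called). How the deposited values assigned shared reads is not given in the sources used here, so the level of Gstm1 and of the pseudogene is uncertain. Gstm2 shared 5.65% and Gstm7 0.532% of such words with other genes, and Gstk1, Gsta4, Gstt1 and Gsto1 shared 0.

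The mu genes form a cluster on chromosome 3, in the order Gstm5, Gstm7, Gstm6, Gstm3, Gstm2, Gstm1, Gstm4 by coordinate. The cluster's outer genes, which are no members of the 10, were measurable. Gstm5 averaged 30.2 FPKM in FF and 28.8 FPKM in BKO, and Gstm4 18.3 FPKM in FF and 17.7 FPKM in BKO. Neither was called in any condition, with log2 differences from -0.12 to 0.03 for Gstm5 and from -0.13 to 0.05 for Gstm4. Gstm3 is listed at 0 in all libraries and Gstm6, with a mean of 0.410 FPKM, was under the filter, so neither was tested. The 3 lower genes thus stood between 2 outer genes whose log2 differences were within 0.13 of 0.

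**Figure D2:**
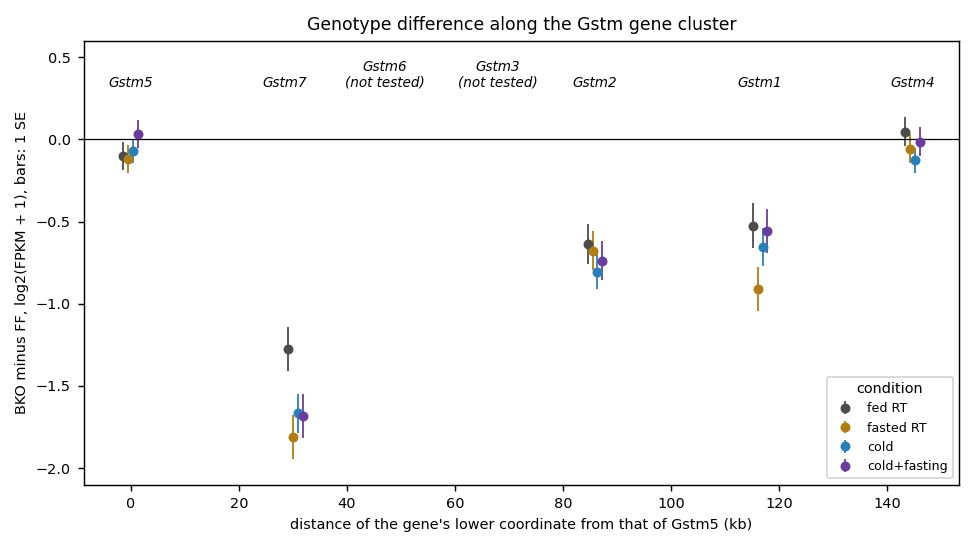
Genotype difference of log2(FPKM + 1), BKO minus FF, with 1 SE (vertical axis), for genes of the Gstm cluster by their distance from Gstm5 in kb (horizontal axis) in the 4 conditions, whose points are shifted slightly sideways. Gstm7, Gstm2 and Gstm1 lie between -0.52 and -1.81, and the outer genes Gstm5 and Gstm4 lie within 0.13 of 0.

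Gstk1, the kappa-class enzyme of mitochondria and peroxisomes (chr6:42245935-42250447, plus strand), was lower in BKO in all 4 conditions. Fed FF mice had 52.8, 56.3 and 51.5 FPKM and fed BKO mice 36.8, 33.2 and 36.0 FPKM. Fasted FF mice had 55.6, 49.8 and 59.2 FPKM and fasted BKO mice 30.03, 27.1 and 29.4 FPKM. In cold FF had 58.7, 64.1, 61.5 and 59.4 FPKM and BKO 38.3, 39.7, 36.7 and 36.6 FPKM. With fasting in the cold FF had 58.6, 64.9 and 57.3 FPKM and BKO 34.4, 38.6 and 49.3 FPKM. The highest BKO library of any condition, replicate 3 of cold with fasting at 49.3 FPKM, lay just under the lowest FF library at 49.8 FPKM. The log2 difference was -0.59 in fed mice (SE 0.10), with a limma adjusted p of 0.0039, and -0.90 in fasted mice (SE 0.10), with 2.0e-06. In cold it was -0.67 (SE 0.08), with an adjusted p of 6.0e-05, and with fasting in the cold -0.57 (SE 0.10), with 0.0044. Without that replicate 3 the last Gstk1 difference was -0.71 (adjusted p = 4.9e-05), and without FF replicate 2 of cold with fasting it was -0.51 and no longer called (adjusted p = 0.0597). In fed mice the Gstk1 call ended with the label-number range as a covariate (adjusted p = 0.14) and when only the fed libraries were fitted (adjusted p = 0.15), as it did in cold with fasting when only its 6 libraries were fitted (adjusted p = 0.864). Among libraries numbered 15 to 32 alone, Gstk1 was -0.53 in fed mice and -0.62 in cold, neither of them called (adjusted p = 0.78 and 0.375).

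Counting all 10 members, 3 were called lower and 0 higher in fed BKO mice, where 0.220% of all tested genes were called in either direction and 0.181% lower. In fasted mice 4 were called lower and 1 higher, beside 8.68% of all genes called in either direction. In cold 4 were called lower and 0 higher, beside 0.402% of all genes called and 0.378% called lower. In cold with fasting 3 were called lower and 0 higher, beside 0.236% called and 0.220% called lower. The average over the 4 conditions had 4 called lower and 1 higher, beside 2.97% of genes called in either direction. Because the 10 were chosen with earlier results known, these counts do not describe an unselected family. Without 1 library the fed count of members called ranged from 2 (without FF replicate 1, BKO replicate 2 or BKO replicate 3) to 4 (without BKO replicate 1), and that of cold with fasting fell to 2 without FF replicate 2. The members lower in fed mice were Gstm7, Gstm2 and Gstk1, and these were also the 3 lower in cold with fasting, where all libraries carry numbers from 15 to 32. The single FF library of that range in fed mice had 6.07 FPKM of Gstm7, 16.9 of Gstm2, 51.5 of Gstk1 and 76.5 of Gstm1, above all 3 BKO libraries for each. The single one in cold had 11.1 FPKM of Gstm7, 16.9 of Gstm2, 58.7 of Gstk1 and 103 of Gstm1, again above all BKO libraries. Several marker sums also differed between the genotypes without overlap. In cold the sum of 7 lymphocyte genes was 18.98 to 43.8 FPKM in FF and 10.4 to 13.9 FPKM in BKO. Of these genes 1 passed the filter and was not called. In fasted mice endothelial sums were 211 to 231 FPKM in FF and 239 to 274 FPKM in BKO. Smooth muscle sums there were 110 to 126 FPKM in FF and 133 to 151 FPKM in BKO. Macrophage sums were 87.8 to 102.3 FPKM in fasted FF and 73.6 to 83.1 FPKM in fasted BKO. The brown adipocyte sum was higher in fasted BKO. In cold with fasting the Schwann cell sum was lower in BKO. The part of these cells in the genotype differences was not tested.

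**Figure D3:**
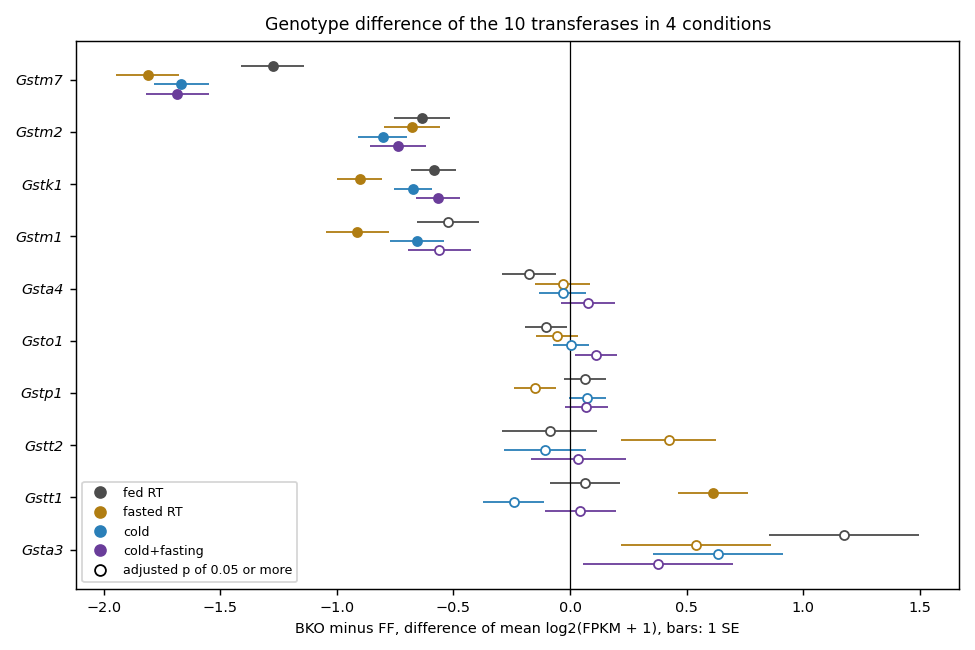
Difference of mean log2(FPKM + 1), BKO minus FF, with 1 SE (horizontal axis) for each transferase in the 4 conditions, where filled points have an adjusted p under 0.05. Gstm7, Gstm2 and Gstk1 are filled and to the left of 0 in all 4 conditions, Gstm1 in 2, and Gstt1 is filled to the right of 0 in fasted mice.

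The other 6 members showed no genotype difference that passed the test in fed mice, in cold or in cold with fasting. Gsta4, an alpha-class enzyme that conjugates the lipid aldehyde 4-hydroxynonenal, had log2 differences from -0.18 to 0.08, and its ranges overlapped in all 4 conditions. Gsto1, an omega-class enzyme with thioltransferase activity, had differences from -0.10 to 0.11. Gstp1, the pi-class enzyme, had differences from -0.15 to 0.07, and 33.7% of its 50-base words also occur in its copy Gstp2, which was at a mean of 0.776 FPKM. These 3 genes were among the 5 most abundant members. A p that misses the threshold does not show that the genotypes were equal.

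The theta-class gene Gstt1 was the 1 member called higher in fasted BKO mice. It measured 8.87, 10.2 and 8.99 FPKM in fasted FF mice and 14.5, 12.2 and 18.2 FPKM in fasted BKO mice. These groups did not overlap, and the log2 difference was 0.61 (SE 0.15, limma adjusted p = 0.0137). The Gstt1 call ended without FF replicate 3 (adjusted p = 0.062), without BKO replicate 3 (adjusted p = 0.11) and with the label-number range as a covariate (adjusted p = 0.0799). That covariate was estimated from other groups, because range and genotype coincide in fasted mice. With only the fasted libraries fitted, the Gstt1 call ended as well (limma adjusted p = 0.126). In fed mice Gstt1 measured 15.9, 12.3 and 11.4 FPKM in FF and 11.2, 14.2 and 16.1 FPKM in BKO, with groups that overlapped. In cold Gstt1 was lower in BKO, at 7.73, 8.80, 8.82 and 6.76 FPKM against 9.16, 9.42, 10.6 and 9.42 FPKM in FF, or 83.3% of the FF mean. Those groups did not overlap, and the log2 difference of -0.24 (SE 0.13) was not called (limma adjusted p = 1). The related gene Gstt2 had a log2 difference of 0.42 in fasted mice (SE 0.20, adjusted p = 0.214) and of -0.11 to 0.04 in the other conditions.

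Gsta3, the alpha-class gene known in mouse liver for detoxifying aflatoxin, was low in all libraries and higher in BKO on average. Fed FF mice had 2.32, 1.72 and 2.10 FPKM and fed BKO mice 12.9, 3.44 and 4.25 FPKM, so that 1 BKO library stood apart. Fasted mice had 2.85, 1.36 and 2.26 FPKM in FF and 3.44, 3.01 and 4.12 FPKM in BKO. In cold the values were 2.30, 2.43, 1.22 and 2.25 FPKM in FF and 4.70, 3.97, 1.86 and 4.86 FPKM in BKO, and with fasting in the cold 2.88, 2.97 and 1.86 FPKM in FF and 3.10, 2.80 and 5.18 FPKM in BKO. The genotypes did not overlap at room temperature and did overlap in both cold conditions. No single condition was called for Gsta3 (log2 differences 1.18, 0.54, 0.63 and 0.38), and the average over the 4 conditions was 0.68 (SE 0.15, limma adjusted p = 0.0167). Without BKO fed replicate 1 the average of Gsta3 was 0.56 (adjusted p = 0.0133) and the ratio of mean FPKM in fed mice was 1.88. With the label-number range as a covariate the average of Gsta3 was 0.61 and not called (adjusted p = 0.62).

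Markers of red blood cells moved with Gsta3 from library to library. The sum of Hba-a1, Hba-a2, Hbb-bs, Hbb-bt and Alas2 was 471 FPKM in BKO fed replicate 1, against 211 and 174 in the other fed BKO libraries and 120 to 188 in fed FF. It was 342 FPKM in FF cold replicate 3, the lowest of the cold libraries, which was also the lowest of all 26 for Gsta3, and 996 FPKM in BKO replicate 3 of cold with fasting, the highest of all libraries. After group means were removed, the log2 values of Gsta3 and of this sum had a Pearson r of 0.820 over the 26 libraries, and 0.302 before. The same library was highest for both in 5 of the 8 groups, as it also was for Gstm1 and for Gstk1. Within groups, Gsta4 had an r of 0.717 with the same sum, Gstm1 0.518, Gstp1 0.515 and Gstm2 0.456. For Gstk1 it was 0.443, for Gsto1 0.409, for Gstm7 0.324, for Gstt2 0.046 and for Gstt1 -0.021. By group the sum ranged from 158 to 292 FPKM in fasted BKO against 226 to 266 in fasted FF, and from 415 to 701 in cold BKO against 342 to 601 in cold FF. The part of red blood cells in the Gsta3 difference was not tested.

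**Figure D4:**
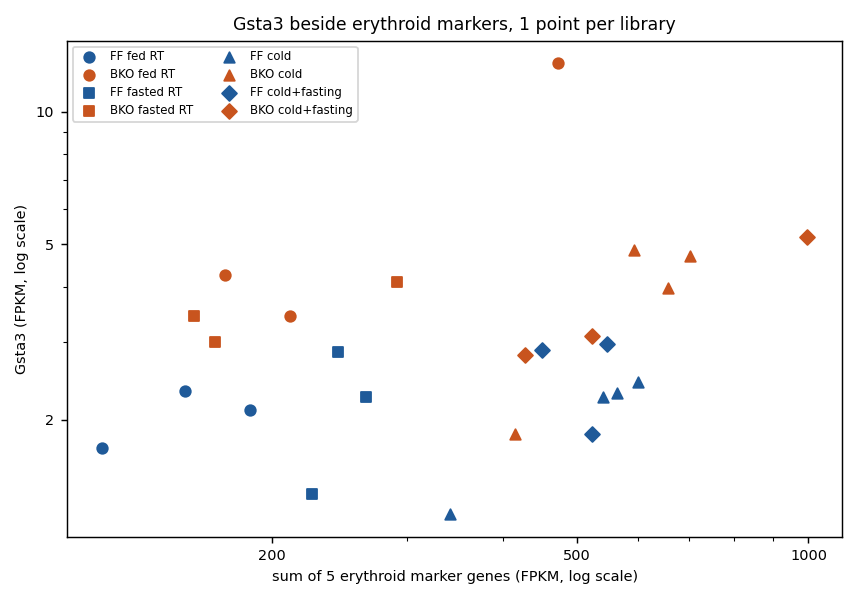
Gsta3 (vertical axis, FPKM, log scale) against the sum of 5 erythroid marker genes (horizontal axis, FPKM, log scale), 1 point per library, FF in blue and BKO in orange, with marker shapes for the 4 conditions. Pearson's r of the log2 values within groups is 0.820, and BKO fed replicate 1 is the highest for Gsta3 at 12.9 FPKM with a sum of 471 FPKM.

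Summed over the 10 members, fed FF mice had 414 FPKM ± 6.15 (SD, n = 3) and fed BKO mice 355 ± 42.3 (n = 3). The sum was 452 ± 44.1 and 377 ± 21.9 FPKM in fasted FF and BKO mice, 448 ± 16.7 and 372 ± 25.8 FPKM in cold (n = 4), and 457 ± 12.1 and 406 ± 44.1 FPKM in cold with fasting. FF and BKO overlapped in the last condition alone, where the ranges were 444 to 468 and 374 to 456 FPKM. That overlap came from BKO replicate 3 at 456 FPKM, with the other BKO libraries at 374 and 386 FPKM. In fed BKO mice replicate 1 had 401 FPKM and the others 317 and 348 FPKM. The make-up of the sum shifted with genotype. In cold Gstm1 held 22.9% ± 0.477 of it in FF and 17.4% ± 0.360 in BKO, while Gsto1 held 24.99% ± 0.752 in FF and 30.2% ± 0.626 in BKO (SD, n = 4). Gsto1 itself averaged 111.9 FPKM in cold FF and 112.4 FPKM in cold BKO, so its larger share in BKO came with the smaller sum. These shares are a description with no test.

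Fasting at room temperature was compared with feeding within each genotype. In FF mice Gstt2 and Gsto1 rose and Gsta4 and Gstt1 fell, 4 of 10, beside 37.5% of all genes called in either direction. In BKO mice Gstt2 and Gsto1 rose and Gsta4, Gstp1 and Gstk1 fell, 5 of 10, beside 27.4% of all genes. The FF share is near its background and is no result about the family. Marker sums moved with fasting as well. In FF the erythroid sum was 120 to 188 FPKM fed and 226 to 266 fasted. In the same order lymphocyte sums were 5.02 to 8.88 and 3.24 to 3.86 FPKM. White adipocyte sums were 52.5 to 58.9 and 33.1 to 43.4, and smooth muscle sums 129 to 147 and 110 to 126. In BKO white adipocyte, macrophage and Schwann cell sums fell and the endothelial sum rose, without overlap. The part of these cells was not tested. Gstt2 had the largest rise in both genotypes. It measured 21.9, 21.6 and 17.2 FPKM fed and 23.05, 44.5 and 47.5 FPKM fasted in FF, and 16.5, 20.1 and 20.2 FPKM fed and 47.2, 46.8 and 54.4 FPKM fasted in BKO. Replicate 1 of fasted FF stayed near the fed level, and all other fasted libraries had 44.5 FPKM or more. The Gstt2 log2 difference was 0.83 in FF (SE 0.20, limma adjusted p = 0.0027), 1.16 without that replicate (adjusted p = 2.9e-05), and 1.34 in BKO (SE 0.20, adjusted p = 3.6e-05).

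Gsta4 fell with fasting in both genotypes. It went from 62.6, 59.1 and 62.7 FPKM to 44.5, 35.4 and 41.9 FPKM in FF and from 64.1, 48.8 and 51.1 FPKM to 40.6, 39.2 and 38.8 FPKM in BKO, with no overlap in either genotype. The Gsta4 log2 difference was -0.59 (SE 0.12, limma adjusted p = 0.00041) in FF and -0.45 (SE 0.12, adjusted p = 0.0064) in BKO, where it was -0.33 and not called without BKO fed replicate 1 (adjusted p = 0.0591). Gsto1 rose from 110, 126 and 114 FPKM to 145, 132 and 164 FPKM in FF and from 117, 99.6 and 110 FPKM to 145, 134 and 143 FPKM in BKO. Its log2 differences were 0.33 in FF (limma adjusted p = 0.0069), which was 0.25 and not called without fasted replicate 3 (adjusted p = 0.0554), and 0.38 in BKO (adjusted p = 0.0034). Gstp1 fell by 0.38 on the log2 scale in BKO (adjusted p = 0.0033) and had a difference of -0.16 in FF (adjusted p = 0.164). The fall of Gstt1 in FF (-0.44, adjusted p = 0.0255) ended without FF fed replicate 1, FF fasted replicate 1 or FF fasted replicate 3, with adjusted p from 0.073 to 0.156. The fall of Gstk1 in BKO (-0.28, adjusted p = 0.0294) ended without BKO fed replicate 1 or 3 or BKO fasted replicate 2 or 3, with adjusted p from 0.0516 to 0.113.

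In the cold challenge Gstm7 rose in both genotypes, from a mean of 4.91 FPKM ± 1.02 (SD, n = 3) to 11.2 ± 1.66 (n = 4) in FF and from 1.43 ± 0.329 to 2.80 ± 0.247 FPKM in BKO. The ratios of means were 2.27 and 1.96, and fed and cold libraries did not overlap. The Gstm7 log2 difference was 1.04 in FF (SE 0.13, limma adjusted p = 4.2e-06) and 0.65 in BKO (SE 0.13, adjusted p = 0.0011). Gstm1 rose in FF, by 0.46 (adjusted p = 0.0111), and had a difference of 0.33 in BKO (adjusted p = 0.0799). Without FF fed replicate 2 the Gstm1 difference in FF was 0.43 and not called (adjusted p = 0.0515), and without BKO fed replicate 1 that in BKO was 0.53 and called (adjusted p = 0.0029). Gstt1 fell by 0.40 in FF (adjusted p = 0.0434) and by 0.71 in BKO (adjusted p = 0.0014), where it went from 11.2, 14.2 and 16.1 FPKM fed to 7.73, 8.80, 8.82 and 6.76 FPKM in cold. The FF call on Gstt1 ended without any 1 of FF fed replicates 1 and 2 and of the 4 cold replicates, other than cold replicate 3, with adjusted p from 0.0748 to 0.264. Markers of other cells moved with cold as well. Summed erythroid markers went from 120 to 188 FPKM in fed FF libraries to 342 to 601 FPKM in cold, endothelial markers from 212 to 230 up to 254 to 288 FPKM, lymphocyte markers from 5.02 to 8.88 up to 18.98 to 43.8 FPKM, and fibroblast markers from 131 to 176 down to 86.4 to 113 FPKM. In BKO the endothelial sum went from 216 to 233 up to 280 to 298 FPKM. The BKO fibroblast sum went from 121 to 183 down to 85.7 to 97.3 FPKM. Erythroid and lymphocyte sums overlapped between fed and cold BKO only through fed replicate 1, at 471 and 14.3 FPKM. The other fed BKO libraries had erythroid sums of 211 and 174 FPKM, against 415 to 701 in cold. Their lymphocyte sums were 9.45 and 5.04 FPKM, against 10.4 to 13.9 in cold. The part of these cells in the cold responses was not tested. In all, 3 of 10 members were called in FF, beside 23.6% of all genes, and 2 of 10 in BKO, beside 16.2%. Restricted to libraries with label numbers 15 to 32, the FF difference of Gstm7, then from 1 fed and 1 cold library whose spread was assumed to be that of the other groups, was 0.78 (adjusted p = 0.0662), and those of Gstm1 (0.43, adjusted p = 0.578) and Gstt1 (-0.28, adjusted p = 0.806) were not called either.

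Cold with fasting was compared with cold alone and with both states at room temperature. Against cold alone 0 members were called in either genotype with limma (0 with an unadjusted p under 0.05 in FF and 0 in BKO), beside 0% of all genes in FF and 0.00787% in BKO. Against fed mice at room temperature, Gstm7 (0.99, adjusted p = 2.8e-05) and Gstm1 (0.55, adjusted p = 0.0056) rose and Gstt1 fell (-0.50, adjusted p = 0.0229) in FF, 3 of 10 beside 20.5% of all genes. In BKO Gstm7 (0.58, adjusted p = 0.0051), Gstm1 (0.52, adjusted p = 0.0103) and Gsta4 (0.34, adjusted p = 0.0461) rose and Gstt1 fell (-0.52, adjusted p = 0.0208), 4 of 10 beside 18.96%. Gsta4 in BKO was no longer called without BKO fed replicate 2 or 3 or without replicate 3 of cold with fasting (adjusted p from 0.131 to 0.26), and Gstm1 not without BKO fed replicate 2 (0.38, adjusted p = 0.0806). The Gstt1 falls ended without FF fed replicate 1 or FF cold with fasting replicate 1 in FF, and without BKO fed replicates 2 or 3 or replicate 1 of cold with fasting in BKO, with adjusted p from 0.0687 to 0.152. With the label-number range as a covariate the FF differences of Gstm1 (0.53, adjusted p = 0.0602) and Gstt1 (-0.38, adjusted p = 0.238) were not called. With only the 6 BKO libraries fitted, none of the 4 BKO differences was called (adjusted p from 0.063 to 0.204). Against fed FF mice, erythroid, lymphocyte and endothelial marker sums rose and the fibroblast sum fell, without overlap. In BKO, fibroblast, white adipocyte and Schwann cell sums fell without overlap. The part of these cells was not tested.

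Set against mice fasted at room temperature, mice fasted in the cold had less Gstt2 and more Gsta4, Gstm7 and Gstp1 in both genotypes. Gstt2 stood at 13.1, 13.1 and 16.5 FPKM in FF and 12.1, 13.9 and 18.2 FPKM in BKO in cold with fasting, below all fasted libraries at room temperature. Its log2 difference was -1.31 in FF (SE 0.20, limma adjusted p = 1.5e-05) and -1.70 in BKO (SE 0.20, adjusted p = 8.8e-07). Gsta4 was higher by 0.68 (adjusted p = 5.4e-05) and 0.79 (adjusted p = 1.4e-05) and Gstp1 by 0.31 (adjusted p = 0.0063) and 0.53 (adjusted p = 6.5e-05). Gstm7 was higher by 0.66 (adjusted p = 0.00031) in FF and 0.79 (adjusted p = 6.7e-05) in BKO. In FF mice Gsto1 was also lower (-0.35, adjusted p = 0.0026), and in BKO mice Gstm1 (0.60) and Gstk1 (0.47) were also higher and Gstt1 lower (-0.63), with limma adjusted p from 0.00041 to 0.002. In FF all fasted libraries at room temperature carry numbers from 1 to 8 and all of cold with fasting numbers from 15 to 32, so number range and condition cannot be told apart there. With the range as a covariate, estimated from the other groups, Gstm7 (0.47, adjusted p = 0.0693) and Gstp1 (0.26, adjusted p = 0.155) were not called in FF. In all 5 of 10 members were called in FF, beside 51.95% of all genes, and 7 of 10 in BKO, beside 45.1%. Marker sums moved here too. In FF, erythroid sums went from 226 to 266 FPKM up to 450 to 547. Lymphocyte sums went from 3.24 to 3.86 up to 13.5 to 33.2, and fibroblast sums from 132 to 151 down to 96.4 to 114. Brown adipocyte, endothelial and smooth muscle sums also rose without overlap. In BKO, erythroid sums went from 158 to 292 FPKM up to 427 to 996. There lymphocyte sums also rose and fibroblast sums fell, without overlap. The part of these cells was not tested. The fasting response itself, cold with fasting minus cold compared with fasted minus fed, differed for Gsta4 in FF by 0.56 (adjusted p = 0.0148) and in BKO by 0.53 (adjusted p = 0.0328), and for Gstt2 in FF by -0.82 (adjusted p = 0.0394) and in BKO by -1.18 (adjusted p = 0.0072). Gstp1 differed in BKO by 0.45 (adjusted p = 0.0192). With the label-number range as a covariate neither FF difference was called (0.58, adjusted p = 0.0866 for Gsta4 and -0.67, adjusted p = 0.261 for Gstt2), and with only the groups compared that of Gstt2 was not (adjusted p = 0.0745). Nor were those of Gsta4 (adjusted p = 0.0583) and Gstp1 (adjusted p = 0.0562) in BKO with only the groups compared. These are 2 of 10 members in FF, beside 21.6% of all genes, and 3 of 10 in BKO, beside 13.1%.

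**Figure D5:**
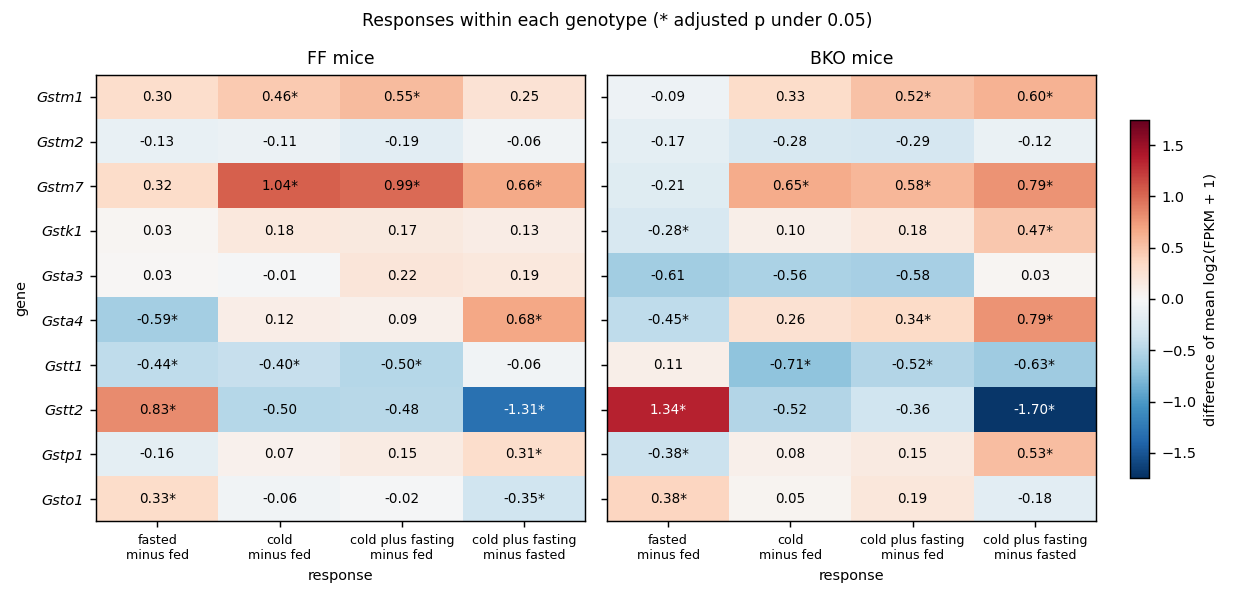
Log2 differences (numbers and colour; red higher, blue lower) of the 10 transferases for 4 responses (columns) in FF (left) and BKO (right) mice, on the log2(FPKM + 1) scale, with an asterisk where the adjusted p was under 0.05. Gstt2 has 0.83 in FF and 1.34 in BKO for fasting at room temperature, and Gstm7 has 1.04 and 0.65 for cold.

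No difference of responses between the genotypes passed the test. Of the 10 members, 0 were called by limma for the difference of responses in any of the 5 comparisons, and 3, 1, 1, 0 and 2 had an unadjusted p under 0.05 for fasted against fed, cold against fed, cold with fasting against fed, against cold and against fasted. Among all genes, 0.716%, 0.00787%, 0.00787%, 0% and 0.433% were called. The largest such difference of Gstm7 was -0.54 for fasting (SE 0.19, adjusted p = 0.22), where its mean went from 4.91 to 6.38 FPKM in FF and from 1.43 to 1.09 FPKM in BKO. For cold it was -0.39 (SE 0.18, adjusted p = 1) with a pseudocount of 1 and -0.23 with a pseudocount of 0.1. That of Gstt1 for fasting was 0.55 (SE 0.21, adjusted p = 0.276). Under all 107 fits of these differences, the alternatives and left-out libraries included, 0 had a member called.

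Likeness to other genes was measured as Pearson's r of log2(FPKM + 1) over the 26 libraries, among 7652 genes outside the family with a mean of at least 5 FPKM. The points share their 8 groups, so r mostly follows the group means, and it is given as a description. Gstm7 was most like Pecr, a peroxisomal enoyl-CoA reductase (r = 0.936), Bcat2, the mitochondrial branched-chain aminotransferase (0.912), and Ttc38 (0.906). Gstk1 was most like Pecr (0.959), Bcat2 (0.947) and Ivd, isovaleryl-CoA dehydrogenase of leucine breakdown (0.937). Gstm1 was most like Bcat2 (0.882), Ttc38 (0.882) and Pecr (0.869). Gsta4 was most like Taldo1, transaldolase of the pentose phosphate pathway (0.951), Mdh1, cytosolic malate dehydrogenase (0.948), and Fdps, farnesyl diphosphate synthase (0.945). These 4 were printed as those with the most calls over all comparisons, 11 for Gstm7 and 7 for each other, with Gstt1, also at 7, left out by its place in the list of members. After group means were removed the closest genes were others, namely Scand1 for Gstm7 (0.755), Capns1 for Gstk1 (0.873), Aldh1l1 for Gstm1 (0.826) and Kif1bp for Gsta4 (0.885).

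Among the members themselves, Gstm7 and Gstk1 had the highest r over all libraries, 0.941, which was 0.371 within groups. Gstm1 had 0.927 with Gstm7 and 0.905 with Gstk1. Gsta4 and Gstt2 ran opposite to each other, at -0.862 over all libraries and -0.160 within groups. Klf15 had an r of 0.868 with Gstm2, 0.688 with Gstk1, 0.631 with Gstm7 and 0.539 with Gstm1 over all libraries, and of 0.171, 0.427, 0.327 and 0.124 within groups.

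The rest of the family outside the 10 held 11 tested genes of 20 listed. Of these, Gstz1, the zeta-class enzyme of tyrosine breakdown, fell in BKO in each condition, with means of 180 FPKM in FF and 32.4 in BKO over all libraries. Gsto2, the second omega gene, was higher in fasted BKO mice (0.61, adjusted p = 0.0146). No other of the 11 was called between genotypes. Mgst1, a membrane-bound transferase, was the highest of all at a mean of 863 FPKM, with log2 differences from -0.08 to 0.15.

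Genes that make, recycle, use and export glutathione were compared between the genotypes from 3 lists with 35 tested genes. Of 11 tested genes of synthesis and recycling, 1 was called, in fasted mice, where Chac1, which degrades glutathione, was lower in BKO (-1.25, adjusted p = 0.0049). Of 15 tested peroxidases, redoxins and other glutathione-using enzymes, 1 was called in fasted mice, with Glrx, glutaredoxin, higher (0.51, adjusted p = 0.0349). Of 9 tested genes of conjugate export and mercapturate steps, 2 were called in fasted mice, both lower in BKO, namely Acy1, an aminoacylase (-0.83, adjusted p = 0.00031), and Dpep1, a dipeptidase (-0.67, adjusted p = 0.0151). In fasted mice 4 of the 35 genes were thus called, 11.4%, beside 8.68% of all genes, and 11 had an unadjusted p under 0.05, 31.4% beside 23.4% of all genes. In fed mice, in cold and in cold with fasting 0 of the 35 were called with limma, and 2, 0 and 3 had an unadjusted p under 0.05, beside 5.84%, 3.76% and 5.74% of all genes. Of 16 tested Nrf2 regulators and targets outside the family, 0 were called between genotypes in any condition with limma, and 2, 4, 1 and 0 had an unadjusted p under 0.05 in the 4 conditions in order. Their median log2 difference was 0.01 fed, -0.20 fasted, 0.04 in cold and -0.03 in cold with fasting, beside medians of all genes of 0.00 to 0.01 in size.

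With fasting at room temperature in FF mice 7 of those 16 Nrf2 genes rose and 1 fell, with a list median of 0.38. Hmox1, haem oxygenase, rose by 5.15 on the log2 scale (adjusted p = 1.3e-08) and Maff, a small Maf partner, by 1.86 (adjusted p = 0.001). In synthesis and recycling 5 of 11 rose and 1 fell. Slc3a2, a subunit of the cystine transporter, rose by 2.13 (limma adjusted p = 4.2e-08). The other subunit of that transporter, Slc7a11, was listed but was not among the tested genes. Gclc and Gclm, the subunits of glutamate-cysteine ligase, rose by 1.25 (adjusted p = 4.4e-06) and 0.83 (adjusted p = 0.00021). Chac1, which degrades glutathione, also rose, by 1.25 (adjusted p = 0.00086). In cold 6 of the 16 Nrf2 genes rose and 2 fell, led by Ephx1, epoxide hydrolase (1.27, adjusted p = 5.7e-05), and 2 of 11 genes of synthesis and recycling rose and 0 fell. These counts stand beside 37.5% of all genes called with fasting and 23.6% with cold in FF.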

How the data were processed

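FPKM values of 48432 genes in 26 libraries were deposited by the authors. The submitters' processing notes name STAR, Cufflinks and Cuffdiff, without versions, and the build mm10. Total RNA was extracted with a column kit and sequenced with standard Illumina libraries, per the labels' protocols. Counts were not used here, so depth and counting error are unknown. In 33 genes, Ucp1 among them, some libraries held 0 while all other values reached 100 FPKM; these were left out as failed estimates. The test used log2(FPKM + 1) of genes that reached 1 FPKM in 3 or more libraries, a scale that understates the change of low genes. The means of the 8 groups were modelled together with limma 3.58.1 (R 4.3.3; empirical Bayes with trend), two-sided, with Benjamini-Hochberg adjustment over 12702 genes within each of 22 comparisons at a threshold of 0.05. It was tested on simulated data. Groups came from the labels, and replicate numbers only name libraries.

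The members and lists were chosen with earlier results of these data known. Named genes are the 10 members, Klf15, the 3 genes most like a member for 4 members, and up to 4 called genes with the smallest adjusted p per list; Gstm4, Gstm5, Gstm2-ps1 and the erythroid sum beside Gsta3 were chosen after their values were seen. Positions and transcripts come from GENCODE M21 (GRCm38), which held 48051 of the table's gene IDs without version, and promoters from RefSeq. Markers of brown and white adipocytes, muscle, endothelium, macrophages, lymphocytes, fibroblasts, smooth muscle, erythroid and Schwann cells were examined. Between genotypes none of the tested markers was called in fed mice, in cold or in cold with fasting; of 7 lymphocyte markers only 1 was tested. In fasted mice Adipoq, Plin1 and Egfl7 were higher and Ppargc1a lower in BKO. Figures were drawn with matplotlib 3.10.9.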

Additional observations from a re-analysis of the deposited data

Results flagged for a closer look

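Values standing apart were looked for in cold FF and cold BKO, the groups with 4 libraries, for 11 genes. This gave 22 sets of 4 values, which share the same libraries. Of these, 2 had a value standing apart, where chance alone gives about 1 in 20 sets. Groups of 3 libraries were not checked in this way. Gsta3 in FF cold replicate 3 was 1.22 FPKM, below the other 3 cold FF libraries at 2.25 to 2.43 FPKM. The erythroid marker sum was also lowest there among cold libraries, at 342 FPKM. Gsto1 in BKO cold replicate 2 was 125.6 FPKM, above the other 3 at 107 to 109 FPKM.

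The response to fasting differed between cold and room temperature for 3 members by the test of that difference in limma. In FF mice the log2 difference of responses was 0.56 for Gsta4 and -0.82 for Gstt2. In BKO mice it was 0.53 for Gsta4, -1.18 for Gstt2 and 0.45 for Gstp1. Both Gsta4 and Gstt2 thus moved with fasting at room temperature and neither was called for fasting in the cold. With the label-number range as a covariate both FF differences lost their call (Gsta4 0.58, adjusted p = 0.0866; Gstt2 -0.67, adjusted p = 0.261). For Gsta4 in FF no single left-out library ended the call. For Gstt2 in FF the adjusted p exceeded 0.05 without any 1 of 8 libraries, and it was 0.0011 with a difference of -1.14 without FF fasted replicate 1. For Gsta4 in BKO it exceeded 0.05 without any 1 of 6 libraries. For Gstp1 in BKO it did so without BKO fed replicate 1 (0.35, adjusted p = 0.0699) or BKO fasted replicate 2 (0.41, adjusted p = 0.0549).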

How the results depend on the processing

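No member's called difference reversed under any alternative. Members called between genotypes in fed mice were 3, and were 1 with the label-number range as a covariate, 1 with the libraries numbered 15 to 32 alone, 0 with only the groups compared and 5 with array weights. In fasted mice 5 became 3 with the covariate and 3 with only the groups compared; in cold 4 became 1 with numbers 15 to 32 alone; in cold with fasting 3 became 1 with only the groups compared. For FF responses, fasted against fed went from 4 to 1 with only the groups compared; cold against fed from 3 to 1 with quantile normalization, 0 with numbers 15 to 32 alone and 7 with array weights; cold with fasting against fed from 3 to 1 with the covariate, 1 with numbers 15 to 32 alone and 7 with array weights; and against fasted from 5 to 3 with the covariate. For BKO responses, cold against fed went from 2 to 5 with array weights, and cold with fasting against fed from 4 to 2 with quantile normalization and 0 with only the groups compared. The fasting response in cold against room temperature went in FF from 2 to 1 without a filter, 0 with the covariate, 1 with only the groups compared and 5 with array weights, and in BKO from 3 to 1 with only the groups compared. Fitting only the groups compared, or only numbers 15 to 32, uses fewer libraries; the cause of the other changes was not tested. The count was within 1.5 times in all other planned settings, among them a pseudocount of 0.1 and a mean of at least 5 FPKM.

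Leaving out 1 library at a time gave 2 to 4 members called in fed mice, 4 to 5 in fasted mice, 4 in cold, 2 to 3 in cold with fasting and 5 for the average. In FF it gave 2 to 5 for fasted against fed, 1 to 4 for cold against fed, 2 to 3 for cold with fasting against fed, 0 against cold and 5 to 6 against fasted. In BKO it gave 3 to 6, 2 to 4, 2 to 4, 0 and 7 to 8 for the same. Differences of responses gave 0, and the fasting response in cold against room temperature 1 to 2 in FF and 1 to 4 in BKO. No paired analysis was possible because the labels give no replicate numbers that the groups share. The number of libraries, 3 or 4 per group, and the unknown depth limit what can be seen for low genes such as Gsta3.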
